A study of Rattus norvegicus with 46 samples.

Results

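The subacromial bursa, the thin sac of synovial and fatty connective tissue between the rotator cuff and the acromion, was compared between rats 3 days after the supraspinatus tendon was cut (tenotomy) and control rats. The libraries were chosen by their labels: 6 bursae activated by tenotomy at day 3, with the bursa left in place, and 5 control bursae, together 11 of the 46 RNA-seq libraries of the series. The labels say no more of the controls and describe no sham operation, so effects of the cut tendon and of the surgery itself cannot be told apart. The labels leave out strain, sex, age and any link between a library and an animal. Each library was therefore 1 replicate, and p-values measure the spread between these libraries, which may be partly technical. Bursa and tendon were dissected from each rat per the labels' protocols, but the labels do not say which 2 libraries came from 1 rat, so they were treated as separate samples. The day 3 bursae were also set against 6 injured bursae taken at day 14. The day 3 response of the bursa was set against that of the supraspinatus tendon with its bursa intact (6 day 3 tendons, 5 control tendons). That fit covers all 46 libraries, and the tendon means below come from it.

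The bursa lets the tendon glide under the bone, and it holds lining fibroblasts and macrophages over a layer of loose connective tissue, fat, vessels and nerves. In injured connective tissue, leukocytes arrive first, macrophages take up debris and blood, and fibroblasts divide and secrete procollagen. Procollagen has to be hydroxylated, folded and exported by the endoplasmic reticulum and then trimmed and crosslinked outside the cell. The series asks what the bursa contributes when the cuff is injured, and this comparison asks which genes change in the bursa itself.

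The libraries held 13364383 to 19506019 estimated counts at day 3 and 15539441 to 20394839 in controls. Levels are given as CPM, in which the counts of each library are scaled to the same total and corrected with TMM factors, and group means have their SD over libraries. Fold changes are on the log2 scale, with a standard error derived from the fold change and its test statistic. The defining markers of lining and fibroblast cells (Prg4, Pdgfra, Dcn, Col1a1) were present in every library, with a summed level of 15920.4 to 29351 CPM at day 3 and 758 to 6622 CPM in controls. Prg4, the lining marker among them, did not pass the test of day 3 against control given below. The macrophage markers Cd68 and Adgre1 summed to 284 to 337 CPM at day 3 and 36.6 to 82.8 CPM in controls. The B cell marker Cd79a stayed below 1 CPM in all 11 libraries. Control bursae 1 and 2 stood apart: mitochondrially encoded transcripts took 48.9% and 53.5% of their counts, against 12.6 to 29.1% at day 3 and 13.3 to 17% in the other 3 controls. The brown fat markers Ucp1 and Cidea summed to 5545 and 2455 CPM in them, against 12.4 to 619 CPM at day 3 and 46.8 to 71.3 CPM in the other controls. Skeletal muscle markers varied within both groups (3.57 to 6121 CPM at day 3, 380 to 14447 CPM in controls). Control bursa 4 had the highest tendon markers at 715 CPM, against 80.1, 6.25, 125 and 137 CPM in control bursae 1, 2, 3 and 5. The day 3 libraries lay between, at 267 to 516 CPM. Values without control bursae 1 and 2 or without control bursa 4 are given where they change a result. These are bulk samples, so fewer cells of a type and less RNA per cell cannot be told apart.

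Of 15874 features tested, 7460 (47.0%) passed an adjusted p under 0.05 (edgeR quasi-likelihood test, Benjamini-Hochberg), 3577 higher at day 3 (22.5%) and 3883 lower (24.5%), around a median log2 fold change of -0.06. The large changes were mostly increases: 331 features were past 8-fold upward and 60 past 8-fold downward. For 4032 features (25.4%) the 6 day 3 and 5 control libraries did not overlap. These shares are the background for the counts of gene lists below, in which a count is of the members tested, after those that could not be matched to a transcript or had too few counts. For most genes with library values or ranges below, the 6 day 3 and 5 control libraries did not overlap. The exceptions are Ccl5, Sqle, Kdr, Myh3, Mymk, Cox4i1, Prg4 and Ptgs2. For genes named by rank of fold change against controls, no overlap was a condition of the ranking.

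**Figure D1:**
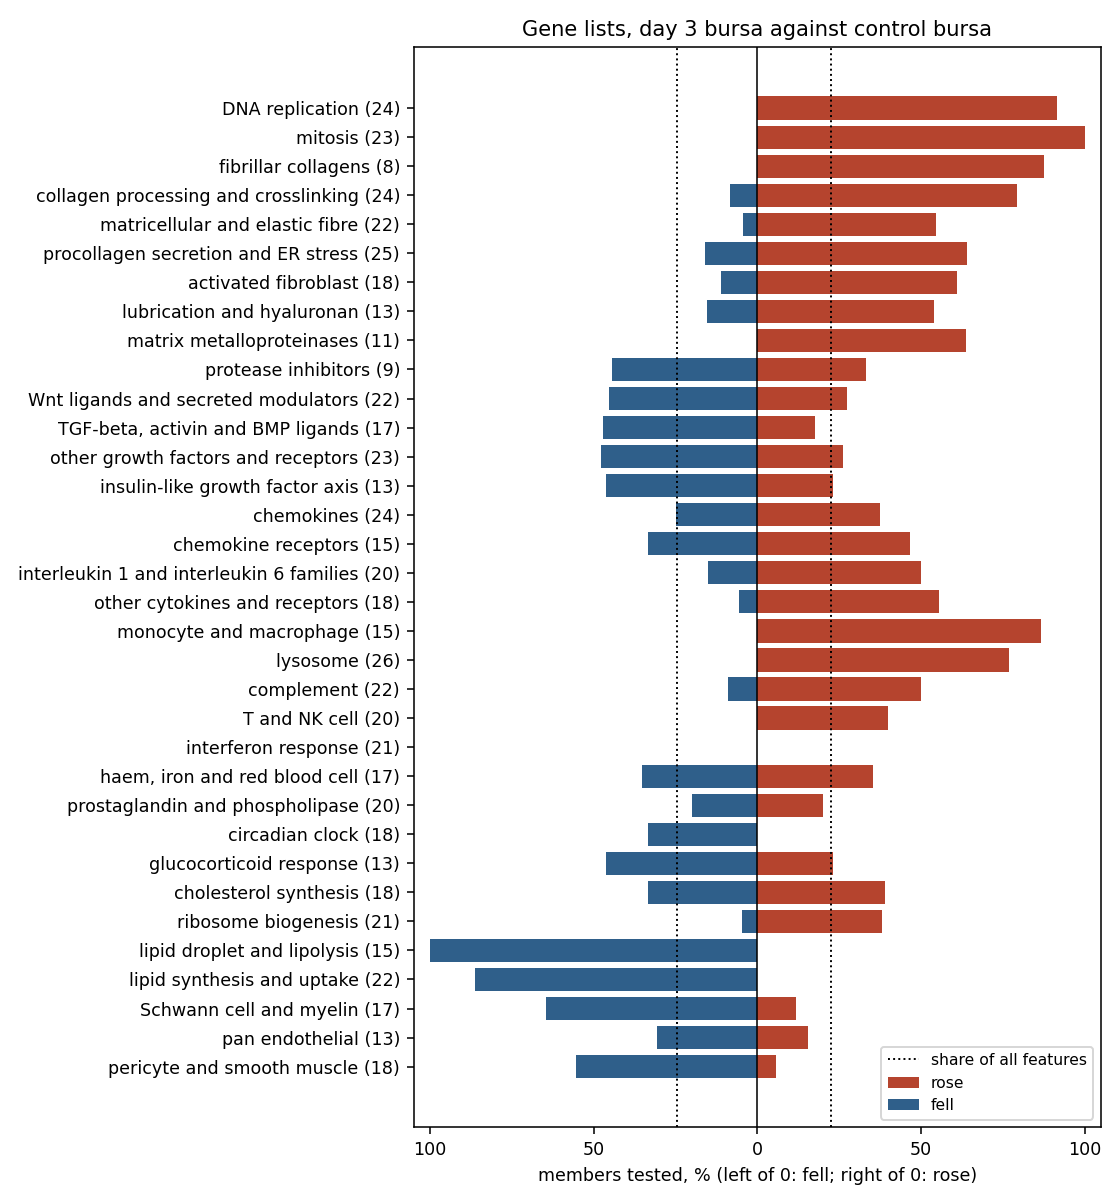
Share of the tested members of each gene list that passed the test upward (bars to the right) or downward (bars to the left) in 6 day 3 against 5 control bursae, with the number of members tested in parentheses and dotted lines at the share of all features (22.5% and 24.5%). All 23 mitosis genes tested rose and all 15 lipid droplet genes tested fell, while no interferon response gene tested passed in either direction.

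Genes of cell division rose together. All 23 mitosis genes tested rose (of 29 in the deposited tables), with a median log2 fold change of 4.57. Of 24 DNA replication genes 22 rose, at a lower median of 1.68. Knstrn, a kinetochore protein of the mitotic spindle, had 7.0 to 17.3 CPM (median 13.2) at day 3, against 0, 0.284, 0.30, 0.218 and 0.468 CPM in controls 1 to 5, a log2 fold change of 5.55 ± 0.48 (adjusted p = 3.79e-07). Ttk, the kinase of the spindle checkpoint, was at 5.76 to 19.7 CPM (median 12.3) at day 3, against 0.0901, 0.19, 0.401, 0.49 and 0.34 CPM in controls (5.29 ± 0.39, adjusted p = 7.96e-08). For Kif20a, a kinesin of cytokinesis, the values were 14.2 to 36 CPM (median 25.9) at day 3 and 0.36, 0.379, 1.15, 1.2 and 0.936 CPM in controls (4.93 ± 0.38, adjusted p = 1.38e-07). Knstrn, Ttk and Kif20a were named by rank, which required that the day 3 and control libraries did not overlap. Kif2c, a microtubule depolymerase, had 4.24 to 15.2 CPM (median 11.4) at day 3, while the 5 controls together held 3 counts. Its fold is given as a ratio of summed CPM of 320.0 (95% interval 109 to 1550.0, counting error only). Its fitted log2 fold change of 8.05 rests on those counts and was 9.19 without control bursa 1. Among replication genes Rrm2, a subunit of ribonucleotide reductase, reached 6.66 to 13.2 CPM (median 11.4) at day 3, against 0.0901, 0.0948, 0.551, 0.599 and 0.383 CPM in controls (4.85 ± 0.39, adjusted p = 1.99e-07). Mcm5, part of the replicative helicase, had 14.2 to 31.7 CPM (median 20.7) at day 3 against 1.53, 2.27, 3.26, 2.4 and 3.06 CPM in controls (3.15 ± 0.23, adjusted p = 9.02e-08). Pcna, the sliding clamp used in replication and in repair, rose by 0.63 ± 0.11. The brakes of the cycle did not move as a group: of 12 tested, 2 rose and 3 fell. Cdkn1c, an inhibitor of cyclin-dependent kinases, rose by 1.40 ± 0.28 and Btg2, an antiproliferative gene, fell by 1.20 ± 0.23.

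The division genes were also higher at day 3 than in the injured bursa at day 14, where 23 of 23 mitosis and 22 of 24 replication genes passed (12.5% of all features were higher at day 3 in that comparison). Plk1, a kinase that drives entry into mitosis, averaged 16.9 ± 5.88 CPM at day 3 and 1.65 ± 0.396 CPM at day 14, a log2 difference of 3.35 ± 0.25 (adjusted p = 8.37e-07). Against the response of the tendon, 1 mitosis gene rose more and 1 less in the bursa (3 less without control bursa 1), and 7 replication genes rose less. Over all features the bursa change was higher than the tendon change in 10.1% and lower in 14.5%.

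**Figure D2:**
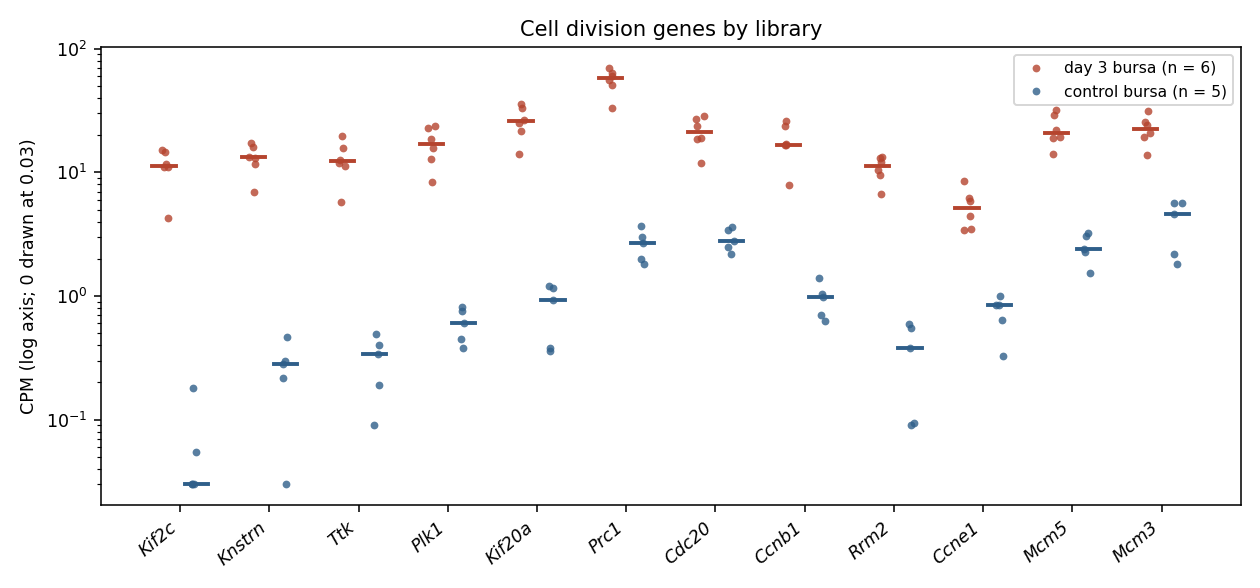
CPM of 12 cell division genes in each day 3 library (left, red) and each control library (right, blue) on a log axis, with a horizontal line at the group median. The 2 groups do not overlap for any gene shown, which the ranking required of Kif2c, Knstrn, Ttk and Kif20a. Mcm3 and Mcm5 have the highest control levels of the replication genes shown.

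The promoters of the mitotic genes are shown because these genes moved together and many are known to share a promoter layout, a CCAAT box followed by the cell cycle homology region, whose core reads TTTGAA. Sequences are the 120 bases before the RefSeq transcription start, read 5′ to 3′ on the gene's strand in the rat build GRCr8, with TTTGAA and CCAAT on either strand in capitals, where no capitalised matches overlap. Cdc20 (chr5:137255800-137255919, minus strand) encodes the activator of the anaphase promoting complex, and Prc1 (chr1:143659361-143659480, plus strand) a midzone bundling protein. Kif23 (chr8:71320585-71320704, minus strand) encodes a kinesin of the midbody, and Plk1 (chr1:186147538-186147657, plus strand) the mitotic kinase above.
Cdc20: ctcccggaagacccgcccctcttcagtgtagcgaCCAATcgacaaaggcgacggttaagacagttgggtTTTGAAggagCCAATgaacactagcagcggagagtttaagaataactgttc
Prc1: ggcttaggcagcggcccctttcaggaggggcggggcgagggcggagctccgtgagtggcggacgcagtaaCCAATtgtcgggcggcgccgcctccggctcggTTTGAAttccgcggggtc
Kif23: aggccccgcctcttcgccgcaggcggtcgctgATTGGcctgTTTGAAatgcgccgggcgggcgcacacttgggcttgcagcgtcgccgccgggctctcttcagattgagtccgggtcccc
Plk1: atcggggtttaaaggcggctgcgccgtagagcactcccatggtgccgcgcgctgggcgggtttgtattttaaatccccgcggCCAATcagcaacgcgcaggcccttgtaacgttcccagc
In this window TTTGAA was found in 9 of the 20 mitosis promoters in the RefSeq table (45.0%), in 0 of 19 DNA replication promoters, and in 7.0% of all 27457 promoters. CCAAT was found in 13 of 20 mitosis (65.0%), in 9 of 19 replication (47.4%) and in 20.1% of all promoters. A match is a run of letters and not a measured site, and Plk1, which rose like the others, has no TTTGAA here. Of the 4 genes, Cdc20 rose by 2.88 ± 0.24, Prc1 by 4.37 ± 0.27, Kif23 by 4.57 ± 0.42 and Plk1 by 4.75 ± 0.31 on the log2 scale.

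Fibrillar collagen genes rose with most of the genes that process their products. Of 8 fibrillar collagen genes 7 rose (median 1.64). Of 24 genes for collagen modification, trimming and crosslinking 19 rose and 2 fell (median 1.21). Col12a1, a collagen that sits on the surface of fibrils, had 512 to 1883 CPM (median 929.8) at day 3, against 58, 20.6, 90.7, 192 and 121 CPM in controls (3.49 ± 0.64, adjusted p = 0.000361). Lox, the lysyl oxidase that starts crosslinks, had 345 to 757 CPM (median 560.5) at day 3, against 13.7, 11.1, 39.8, 53.4 and 45.5 CPM in controls (4.09 ± 0.41, adjusted p = 1.38e-06). P4ha3, a catalytic subunit of prolyl hydroxylase, had 26 to 74.7 CPM (median 58.4) at day 3, against 0.901, 0.19, 2.0, 4.96 and 1.45 CPM in controls (4.80 ± 0.74, adjusted p = 8.8e-05), and 5.49 without control bursa 4, the highest of the controls. The commoner subunit gene P4ha1 rose by 1.06 ± 0.16. Among the chaperones of the triple helix, Fkbp10 rose by 2.51 ± 0.39, Serpinh1 by 2.13 ± 0.29 and P3h1 by 1.89 ± 0.22, and the C-propeptide enzyme Bmp1 rose by 1.71 ± 0.29. The 2 enhancers of that enzyme went in opposite directions, and Pcolce rose (1.76 ± 0.34, adjusted p = 0.000624). PCOLCE2 had 5.37 to 18.3 CPM (median 17.4) at day 3, against 50.3, 28.3, 88.3, 124 and 139 CPM in controls (-2.63 ± 0.41, adjusted p = 8.79e-05). Neither enhancer's groups overlapped, which was a condition for naming PCOLCE2 by rank.

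The non-fibrillar collagens split. Of 24 tested, 9 rose and 5 fell (median 0.44), and 8 fell without control bursae 1 and 2. Col6a1, of the beaded filaments around cells, rose by 1.47 ± 0.33, and Col18a1, a basement membrane collagen, by 1.43 ± 0.26. Col4a3 and Col4a4, chains of a specialised type IV collagen network, fell by 1.41 ± 0.32 and 1.22 ± 0.23. The transmembrane Col13a1 fell by 1.73 ± 0.33, and Col28a1, a collagen best known around Schwann cells, by 1.72 ± 0.39.

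Elastic microfibril genes rose beside the collagens: in the matricellular and elastic fibre list 12 of 22 rose and 1 fell (median 1.11). Fbn2, the fibrillin of developing tissue, had 16.9 to 48.2 CPM (median 21.9) at day 3, against 0, 0, 0.501, 3.76 and 0.808 CPM in controls (4.64 ± 0.82, adjusted p = 0.000281). Without control bursa 4 its fold change was 6.06. Emilin1, a glycoprotein at the edge of elastic fibres, had 129 to 254 CPM (median 214) at day 3, against 9.91, 11.9, 22.8, 48.7 and 26.5 CPM in controls (3.10 ± 0.37, adjusted p = 7.19e-06). Efemp2, needed for elastin crosslinking, rose by 1.98 ± 0.30. Ltbp2, a microfibril protein, rose by 1.57 ± 0.26, and Thbs2, a thrombospondin of the matrix, by 2.23 ± 0.48. The groups did not overlap for any of these 5 genes, and control bursa 4 came nearest to the day 3 level of Fbn2.

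Genes of export through the endoplasmic reticulum mostly rose, while 4 genes of its stress response fell. Of 25 genes 16 rose and 4 fell (median 0.78). Sdf2l1, a folding factor, had 23.1 to 31.4 CPM (median 26.1) at day 3, against 3.6, 1.42, 7.61, 7.58 and 8.04 CPM in controls (2.20 ± 0.32, adjusted p = 5.62e-05). Kdelr3, a retrieval receptor for escaped chaperones, rose by 2.01 ± 0.35, and Sec24d, the coat protein that carries procollagen, by 1.29 ± 0.29. The members that fell were Ddit3 (-1.45 ± 0.20), Atf4 (-0.57 ± 0.09), Trib3 (-1.21 ± 0.36) and Asns (-0.82 ± 0.25), a set known for the response to stress and to lack of amino acids. Trib3 and Asns did not pass without control bursae 1 and 2 (adjusted p = 0.06 and 0.339). Ddit3 had 7.45 to 15.6 CPM (median 10.1) at day 3, against 26.2, 24.4, 28.7, 28.9 and 33.6 CPM in controls. It was also lower than at day 14 (-1.30 ± 0.19, adjusted p = 0.000168), as were 9.81% of all features.

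**Figure D3:**
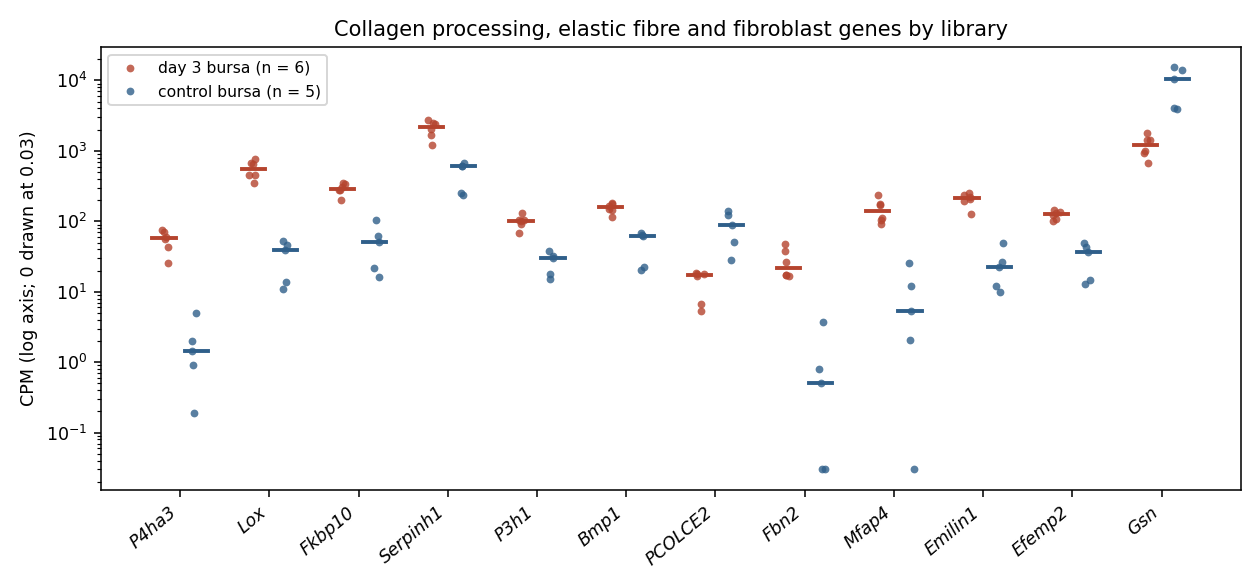
CPM of 12 genes of collagen processing, elastic fibres and fibroblasts in each day 3 library (left, red) and each control library (right, blue) on a log axis, with lines at the medians. Most rise at day 3 (Lox, Fkbp10, Emilin1), while PCOLCE2 and Gsn are lower at day 3.

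Fibroblast genes moved in both directions. In the activated fibroblast list 11 of 18 rose and 2 fell (median 2.11). In the quiescent list 4 of 19 rose and 7 fell, or 12 without control bursae 1 and 2 (median -0.33). Gsn, the actin severing protein gelsolin, had 677 to 1766 CPM (median 1215) at day 3, against 3874, 4031, 10600.2, 15282 and 14225 CPM in controls (-3.0 ± 0.37, adjusted p = 9.47e-06). Myoc, a secreted protein of the eye's outflow tissue and of nerve sheaths, had 1.87 to 13.3 CPM (median 8.89) at day 3, against 87.2, 47.2, 231, 443 and 400.1 CPM in controls (-4.87 ± 0.60, adjusted p = 1.1e-05). Npr3, the clearance receptor for natriuretic peptides, had 2.08 to 7.22 CPM (median 4.22) at day 3, against 42.7, 19.6, 93.4, 35.5 and 34.8 CPM in controls (-3.39 ± 0.46, adjusted p = 2.58e-05). These 3 genes were named by rank, which required every day 3 library to be below every control. Lum, a small leucine rich proteoglycan that spaces collagen fibrils, moved the other way and had 1239.9 to 1844 CPM (median 1551) at day 3, against 74.7, 66.6, 188, 231 and 241 CPM in controls (3.27 ± 0.34, adjusted p = 1.86e-06). Its family did not rise with it: of 10 small leucine rich proteoglycan genes 2 rose and 4 fell (median -0.69). Among transcription factors of stromal cells 9 of 23 rose and 5 fell. Runx1, known in blood and in activated mesenchyme, had 25.1 to 46.8 CPM (median 39.6) at day 3, against 3.7, 1.71, 4.96, 7.9 and 4.72 CPM in controls (3.05 ± 0.31, adjusted p = 1.86e-06). The skeletal factor Runx2 rose by 2.41 ± 0.28. Meox1, a homeobox gene linked to fibroblast activation in mouse hearts, rose by 1.96 ± 0.39, and Snai1, an inducer of mesenchymal transition, by 1.77 ± 0.24. Runx1 is also expressed by leukocytes, whose markers rose too, and their part in its rise was not tested.

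Growth factor genes fell more often than they rose, and within each pathway ligands and modulators did not move as 1 block. Of 17 TGF-beta family ligands 3 rose and 8 fell (median -0.80). Without control bursa 4, 5 rose. Bmp7, a bone morphogenetic protein that opposes fibrosis in mouse kidney, had 0.187 to 0.786 CPM (median 0.364) at day 3, against 2.61, 3.7, 6.66, 7.03 and 8.21 CPM in controls (-3.69 ± 0.38, adjusted p = 1.76e-06). Bmp6, which signals iron status in liver, fell by 1.62 ± 0.29, Bmp2 by 0.85 ± 0.18 and Tgfb2 by 1.06 ± 0.24. Tgfb1, the isoform of platelets and leukocytes, rose by 1.26 ± 0.19 and its receptor gene Tgfbr1 by 1.24 ± 0.17. Tgfbi, a matrix protein induced by TGF-beta, rose by 1.87 ± 0.41. Ltbp4, a latent TGF-beta binding protein, fell by 2.07 ± 0.30, and Fst, which traps activin, fell by 1.69 ± 0.28. Tgfbr1, Tgfbi, Ltbp4 and Fst belong to a list of 29 receptor and modulator genes tested. Of these 29, 5 rose, 8 fell and 16 did not pass (median -0.25). The bursa and the tendon differed in Bmp7, whose change was lower in the bursa (difference -2.66 ± 0.78, adjusted p = 0.0101). Tendon means were 0.0853 ± 0.0647 CPM at day 3 and 0.183 ± 0.0926 CPM in controls.

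In the Wnt list 6 of 22 rose and 10 fell (median -0.50). Sfrp2, a secreted Frizzled-related protein of wound fibroblasts, had 139.6 to 535 CPM (median 308) at day 3, against 21.4, 9.38, 46.5, 50.5 and 64.2 CPM in controls (3.07 ± 0.43, adjusted p = 3.55e-05). Sfrp1, a Wnt inhibitor, had 124 to 231 CPM (median 155) at day 3, against 25.9, 21.9, 29.2, 44.5 and 58.8 CPM in controls (2.14 ± 0.25, adjusted p = 6.57e-06). Other inhibitors went the other way, and Sfrp5 (-1.45 ± 0.32) and Frzb (-1.50 ± 0.35) fell. The ligands Wnt11 (-2.25 ± 0.26) and Wnt5a (-1.07 ± 0.25) fell too. So did Axin2 (-1.30 ± 0.25), a feedback gene widely used as a readout of canonical Wnt signalling. Wnt11 had 1.43 to 2.7 CPM (median 1.71) at day 3, against 6.67, 5.59, 8.26, 15.6 and 11 CPM in controls. Among the ligands Wnt2b rose most and had 0.521 to 1.31 CPM (median 0.892) at day 3, against 0, 0.0948, 0.15, 0.0545 and 0.298 CPM in controls (2.77 ± 0.57, adjusted p = 0.000971), or 3.46 without control bursa 5, its highest control. For Wnt5a the bursa change was lower than that of tendon (difference -2.51 ± 0.33, adjusted p = 4.91e-07). Wif1, another Wnt inhibitor and the fifth lowest of the genes ranked by fold change, had 2.32 to 3.67 CPM (median 3.25) at day 3, against 10.3, 13.1, 4.26, 216 and 4.13 CPM in controls (-4.01 ± 0.88, adjusted p = 0.00166). Control bursa 4, the library with the most tendon markers, held most of it, and without it the value was -1.36 (adjusted p = 0.00303). The Wif1 value was -4.60 without control bursae 1 and 2, and under limma voom it did not pass (adjusted p = 0.149). Nor did it pass in a fit that also took account of replicate number.

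Of 23 other growth factor and receptor genes 6 rose and 11 fell (median -0.32). Of 13 genes of the insulin-like growth factor axis 3 rose and 6 fell (median -0.76). Fgf9, a fibroblast growth factor, had 0.0524 to 0.314 CPM (median 0.182) at day 3, against 1.26, 1.42, 0.851, 1.53 and 0.596 CPM in controls (-2.66 ± 0.42, adjusted p = 9.35e-05). Fgf1 fell by 2.10 ± 0.25. The heparin binding cytokines midkine (Mdk) and pleiotrophin (Ptn) rose by 1.69 ± 0.24 and 1.57 ± 0.29. The platelet-derived growth factor receptor genes Pdgfra and Pdgfrb rose by 1.33 ± 0.34 and 1.05 ± 0.19, while the ligand gene Pdgfb fell by 0.63 ± 0.10. Stc2, an inhibitor of the protease that frees insulin-like growth factors, had 1.17 to 2.26 CPM (median 1.72) at day 3, against 9.01, 5.59, 7.21, 8.28 and 5.79 CPM in controls (-2.02 ± 0.20, adjusted p = 1.41e-06). The binding protein gene Igfbp5 fell by 1.45 ± 0.33.

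**Figure D4:**
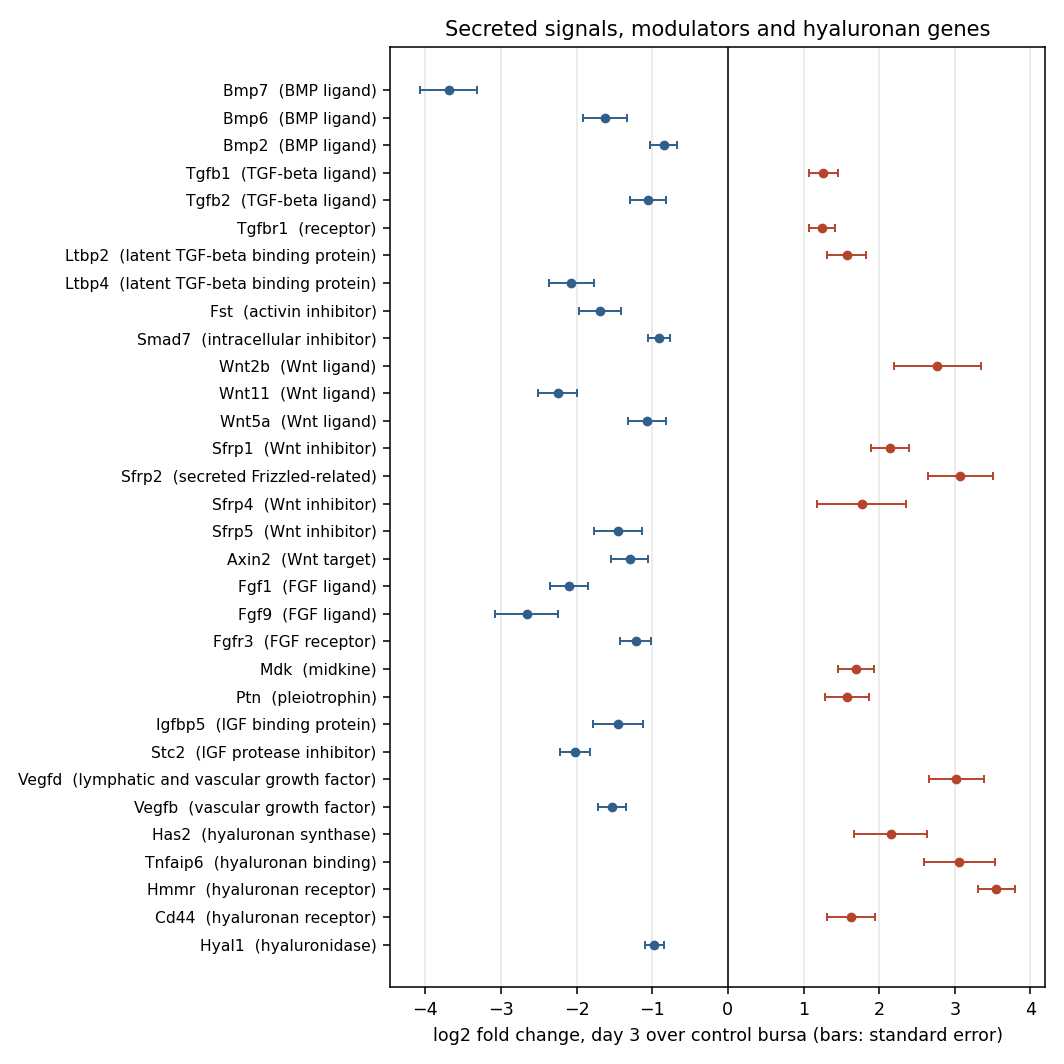
Log2 fold change, day 3 over control, with its standard error, for 32 genes of TGF-beta, BMP, Wnt, fibroblast and insulin-like growth factor signalling and of hyaluronan. Bmp7 and Fgf9 lie farthest to the left, and Hmmr, Sfrp2, Tnfaip6 and Vegfd to the right.

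Genes for hyaluronan, the polymer that lubricates the bursa and swells healing tissue, rose in 7 of 13 cases and fell in 2 (median 0.95). Tnfaip6, which ties hyaluronan chains together in inflamed tissue, had 21.2 to 84.9 CPM (median 39.6) at day 3, against 1.62, 2.18, 7.41, 8.17 and 6.55 CPM in controls (3.06 ± 0.47, adjusted p = 8.64e-05). Has2, the main synthase of mesenchymal cells, had 30.2 to 78.2 CPM (median 48.8) at day 3, against 2.25, 2.46, 15.7, 20.7 and 15.2 CPM in controls (2.15 ± 0.48, adjusted p = 0.00172). The receptor gene Cd44 rose by 1.63 ± 0.32. The groups did not overlap for Tnfaip6, Has2 or Cd44. The synthase gene Has3 (-1.32 ± 0.36) and the lysosomal hyaluronidase gene Hyal1 (-0.97 ± 0.13) fell. Cemip, which degrades hyaluronan outside the cell, rose by 3.45 ± 0.95, a value that was 6.50 without control bursa 4 and 2.83 without control bursae 1 and 2. Prg4, the joint lubricant lubricin, did not pass, with 181 to 259 CPM at day 3 and 6.92 to 683 CPM in controls (log2 fold change 0.14 ± 0.71, adjusted p = 0.888). Without control bursa 4, its highest control, the value was 1.52 (adjusted p = 0.0455). Of 10 synovial lining genes tested, Prg4 among them, 1 rose and 2 fell (median 0.18).

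Most matrix protease genes tested rose, and genes of their inhibitors split. Of 11 metalloproteinase genes tested 7 rose (4 under limma voom) and none fell (median 1.51). Some members were not matched to transcripts. Of these, the authors' deposited table has Mmp9 higher at day 3 (3.37, adjusted p = 9.65e-08). It has Mmp28 lower (-1.53, adjusted p = 1.96e-07), and Mmp24 did not pass (0.49, adjusted p = 0.394). Mmp19, a stromal and macrophage member, rose by 1.84 ± 0.17 and the gelatinase Mmp2 by 1.51 ± 0.41. Of 9 inhibitor genes 3 rose and 4 fell. A2m, alpha-2-macroglobulin, a broad inhibitor that rats also make in the acute phase, had 1.88 to 10.8 CPM (median 4.04) at day 3 and no count in any control, at least 155-fold higher against a floor of 3 counts over the control group. Timp1, an inducible inhibitor of metalloproteinases, had 115 to 219 CPM (median 189) at day 3, against 9.28, 8.34, 24.9, 35.9 and 37.7 CPM in controls (2.97 ± 0.36, adjusted p = 8.18e-06). Timp3, the inhibitor that binds to matrix, had 77.7 to 227 CPM (median 140.4) at day 3, against 363, 551, 601, 485 and 398 CPM in controls (-1.68 ± 0.22, adjusted p = 1.58e-05). Timp4 had 11.8 to 41.7 CPM (median 22.3) at day 3, against 75.3, 121, 76.1, 60.9 and 76.4 CPM in controls (-1.83 ± 0.28, adjusted p = 7.08e-05). Day 3 libraries were thus all above the controls for Timp1 and all below them for Timp3 and Timp4. Compared with day 14, Timp1 was higher (2.02 ± 0.32, adjusted p = 0.000368) and Timp3 (-1.33 ± 0.21, adjusted p = 0.000328) and Timp4 (-1.10 ± 0.26, adjusted p = 0.007) were lower at day 3.

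Chemokine genes rose in 9 of 24 cases and fell in 6 (median 1.17). Ccl7, which draws monocytes, had 27.8 to 59.3 CPM (median 40.3) at day 3, against 4.87, 0.758, 4.56, 7.36 and 8.34 CPM in controls (2.96 ± 0.62, adjusted p = 0.00116). The monocyte attractant Ccl3 rose by 3.41 ± 0.57. Those that fell included Cxcl12, which holds stem and immune cells in tissue (-1.31 ± 0.21), and the eosinophil attractant Ccl24 (-1.71 ± 0.30). Among 15 receptors 7 rose and 5 fell (median 0.83). Cx3cr1, the fractalkine receptor of patrolling monocytes and resident macrophages, had 2.54 to 18.6 CPM (median 10.7) at day 3, against 0.0901, 0.758, 0.952, 1.63 and 1.57 CPM in controls (3.45 ± 0.57, adjusted p = 0.000147). Cxcr4, the receptor for Cxcl12, rose by 2.20 ± 0.27. All 3 atypical receptors tested, which take up chemokines without signalling through G proteins, fell. Their log2 fold changes were -2.01 ± 0.37 for Ackr2, -1.65 ± 0.21 for Ackr4 and -1.55 ± 0.16 for Ackr3. Ackr2 had 0.797 to 2.57 CPM (median 1.03) at day 3, against 3.6, 2.65, 7.56, 7.3 and 6.98 CPM in controls.

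In the interleukin 1 and interleukin 6 families 10 of 20 genes rose and 3 fell, or 5 under limma voom (median 0.54). Il1rn, the natural antagonist of interleukin 1, had 4.69 to 15.1 CPM (median 8.0) at day 3, against 0.631, 1.52, 1.2, 1.2 and 1.19 CPM in controls (2.89 ± 0.69, adjusted p = 0.00301). Il18 had 8.75 to 15.3 CPM (median 13.7) at day 3, against 0.901, 0.758, 2.65, 2.13 and 3.45 CPM in controls (2.68 ± 0.38, adjusted p = 3.5e-05). Osm, oncostatin M from myeloid cells, had 1.94 to 3.51 CPM (median 2.57) at day 3, against 0.36, 0.758, 0.401, 0.327 and 0.425 CPM in controls (2.54 ± 0.33, adjusted p = 1.57e-05). Its receptor gene Osmr rose by 1.14 ± 0.21, and Socs3, a feedback inhibitor induced by this family, rose by 2.07 ± 0.33. Every day 3 library exceeded every control for Il1rn and Il18. Lifr, the receptor for leukaemia inhibitory factor, fell by 1.30 ± 0.21 in the bursa, where its change was higher than that of tendon by 1.35 ± 0.32 (adjusted p = 0.00164). Il33, an alarmin of stromal nuclei, rose by 0.85 ± 0.21. Its change exceeded that of the tendon by 2.22 ± 0.29 (adjusted p = 4.71e-07), with tendon means of 99.2 ± 15.3 CPM at day 3 and 264 ± 91.9 CPM in controls. Of 18 other cytokine and receptor genes 10 rose and 1 fell (3 without control bursae 1 and 2). The receptor genes Il4r, Il10ra and Il17ra rose by 1.81 ± 0.28, 1.74 ± 0.28 and 1.56 ± 0.21.

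Macrophage genes mostly rose. The counts that rose were 13 of 15 in the monocyte and macrophage list (median 2.10) and 8 of 11 in the resident type list (median 1.33), with none lower in either list. In the list of macrophages marked by Spp1, Trem2 and Gpnmb 10 of 14 rose (median 1.34), while 2 fell, Lpl, a lipase that fat cells also express (-1.58 ± 0.30), and Cd9, a tetraspanin of many cell types (-0.62 ± 0.23). The value of Lpl was -0.99 without control bursae 1 and 2, and Cd9 did not pass without control bursa 3, 4 or 5 or without day 3 bursa 2, 3, 4 or 5 (adjusted p = 0.0579 to 0.144). Trem2, a lipid receptor of macrophages, had 29.5 to 56.9 CPM (median 47.5) at day 3, against 1.35, 1.99, 11.2, 10.8 and 11.1 CPM in controls (2.59 ± 0.45, adjusted p = 0.00022). Apoe, a carrier of cholesterol, had 3279 to 4069 CPM (median 3889.6) at day 3, against 336, 338, 621, 577 and 787 CPM in controls (2.84 ± 0.21, adjusted p = 1.08e-07). Vsig4, a complement receptor of resident macrophages, had 1.92 to 10.1 CPM (median 4.16) at day 3, against a single count over all controls. The ratio of summed CPM was 408 (95% interval 72.8 to 16100.0, counting error only), with no control count left without control bursa 5. The lysosome list followed: 20 of 26 rose and none fell (median 0.67), and 16 of the 26 were higher than at day 14. Lgmn, the endopeptidase legumain, had 585 to 779.8 CPM (median 719) at day 3, against 82.6, 60.4, 134, 118 and 130.0 CPM in controls (2.76 ± 0.20, adjusted p = 7.27e-08). Ctsb, cathepsin B, had 2748 to 3321 CPM (median 3069.8) at day 3, against 806, 696, 1176, 1139 and 1028 CPM in controls (1.64 ± 0.15, adjusted p = 6.48e-07). Lamp1, a protein of the lysosomal membrane, rose by 0.41 ± 0.07.

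Complement genes rose in 11 of 22 cases and fell in 2 (median 0.66). Ptx3, a pentraxin that binds microbes and complement, had 26 to 77.1 CPM (median 42.1) at day 3, against 0.541, 0.379, 1.25, 0.872 and 1.49 CPM in controls (5.64 ± 0.46, adjusted p = 2.41e-07). Cfi, the protease that cuts C3b, had 5.16 to 8.63 CPM (median 5.42) at day 3, against 0.0901, 0.19, 0.0501, 0.0545 and 0.0425 CPM in controls (6.25 ± 0.48, adjusted p = 1.31e-07), and 6.84 without control bursae 1 and 2. The anaphylatoxin receptor genes C3ar1 and C5ar1 rose by 2.66 ± 0.39 and 1.80 ± 0.28, and the shields of host membranes, Cd55 and Cd59, fell by 1.18 ± 0.24 and 0.75 ± 0.09. The Cfi change exceeded that of tendon by 4.70 ± 0.82 (adjusted p = 4.2e-05; 0.0686 under limma voom; 5.33 without control bursae 1 and 2), with tendon means of 8.97 ± 2.94 CPM at day 3 and 3.07 ± 2.11 CPM in controls.

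Markers of lymphocytes were low and mixed. Of 20 T and NK cell genes 8 rose and none fell (median 0.58), while 13 were lower and 2 higher than at day 14. Cd8b had 4.86 to 9.48 CPM (median 6.46) at day 3, against 0.27, 0.379, 0.30, 0.436 and 0.17 CPM in controls (4.40 ± 0.28, adjusted p = 3.36e-08), and Cd8a rose too (2.87 ± 0.31, adjusted p = 3.29e-06). In rats these chains are also found on some macrophages. The T cell markers Cd3e and Cd3g together stayed at 1.83 to 2.56 CPM at day 3 and 0.5 to 1.66 CPM in controls. Ccl5, a chemokine of T and NK cells, had 0.187 to 0.733 CPM (median 0.481) at day 3, against 0.541, 1.04, 1.1, 1.36 and 1.57 CPM in controls (-1.18 ± 0.33, adjusted p = 0.00812). Its mean was 0.503 ± 0.198 CPM at day 3 and 7.49 ± 2.27 CPM at day 14, a difference of -3.89 ± 0.32 (adjusted p = 1.8e-06). Likewise Nkg7, a protein of cytotoxic granules, was lower than at day 14 (-2.88 ± 0.43, adjusted p = 0.000227). No tested gene of the interferon response passed against controls (0 of 21, median 0.11; edgeR, with 0 at an unadjusted p under 0.05). DESeq2 also called 0 of them and limma voom 1, which was higher at day 3. Among members not matched to transcripts, Oas2 was higher at day 3 in the authors' deposited table (1.36, adjusted p = 0.0117). Mx2 did not pass there (0.12, adjusted p = 0.865). Against day 14, 6 of the 21 tested genes were lower. That count was 1 without day 14 bursa 6, 1 or 2 without any single day 3 library, and 1 in DESeq2. Mx1 was among the 5 lowest of day 3 against day 14 (-3.93 ± 1.19, adjusted p = 0.0263), a difference of -0.51 (adjusted p = 0.545) without day 14 bursa 6. Of the same 5, Irf7, a factor of the interferon response, differed by -3.25 ± 0.84 (adjusted p = 0.0106) and by -1.14 without day 14 bursa 6. Scd, a fatty acid desaturase, differed by -4.54 ± 1.17 (adjusted p = 0.0109) and by -3.39 without day 14 bursa 2. Cilp2, a cartilage matrix protein, differed by -3.33 ± 1.12 (adjusted p = 0.043) and did not pass without any single library other than day 14 bursa 6 (adjusted p = 0.0519 to 0.0911). In a fit that also took account of replicate number, Mx1, Irf7 and Cilp2 did not pass.

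Globin genes fell, and genes that handle free haem rose. In the haem, iron and red blood cell list 6 of 17 rose and 6 fell (median 0.03). Hbb, a globin of red blood cells with near-identical copies that may share its reads, had 45.3 to 109 CPM (median 67.8) at day 3, against 182, 229, 277, 304 and 387 CPM in controls (-1.98 ± 0.26, adjusted p = 1.64e-05). Alas2, which starts haem synthesis in red cell precursors, fell by 2.02 ± 0.34. Hmox1, the enzyme that breaks haem down, had 240.4 to 595 CPM (median 384) at day 3, against 10.8, 13.5, 17.1, 15 and 16.8 CPM in controls (4.73 ± 0.28, adjusted p = 2.33e-08). Ftl1, the ferritin light chain that stores the iron released, rose by 0.93 ± 0.12. All day 3 libraries were below all controls for Hbb and above them for Hmox1. The scavengers of free haemoglobin rose too, Cd163 by 1.33 ± 0.37 and Hp by 2.67 ± 0.33 (3.38 without control bursae 1 and 2). In 9 of these genes the bursa change was lower than that of the tendon, and in none was it higher. For Hbb the difference was -4.10 ± 0.49 (adjusted p = 6.82e-08), with tendon means of 21.5 ± 8.01 CPM at day 3 and 5.03 ± 1.9 CPM in controls. For Hmox1 it was -1.74 ± 0.36 (adjusted p = 0.000389), with tendon means of 719 ± 209.8 CPM at day 3 and 8.35 ± 3.03 CPM in controls.

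Genes that make, sense and break down prostaglandins passed at shares near those of all features. Of 20 tested 4 rose and 4 fell (median 0.13), or 7 fell without control bursae 1 and 2. The secreted phospholipases fell, and Pla2g2a had 3.24 to 16.9 CPM (median 7.08) at day 3, against 24.9, 47.3, 64, 156 and 140.1 CPM in controls (-3.41 ± 0.49, adjusted p = 4.33e-05). Pla2g5 had 0.375 to 1.19 CPM (median 0.717) at day 3, against 3.33, 4.08, 5.96, 16.7 and 6.89 CPM in controls (-3.35 ± 0.42, adjusted p = 1.11e-05). Tbxas1, thromboxane synthase of platelets and macrophages, rose by 1.48 ± 0.30. Hpgd, which inactivates prostaglandins, rose by 1.45 ± 0.29, and the receptor gene Ptger3 fell by 1.82 ± 0.32. Ptgs2, the inducible cyclooxygenase, did not pass, at 1.86 to 18.3 CPM at day 3 and 1.14 to 7.9 CPM in controls (log2 fold change 0.72 ± 0.61, adjusted p = 0.349). Its change was lower than that of tendon (difference -4.54 ± 0.88, adjusted p = 0.000172), where the means were 38.6 ± 22.6 CPM at day 3 and 1.01 ± 0.516 CPM in controls. Without day 3 bursa 4, the highest day 3 library for Ptgs2, that difference was -5.19.

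In the glucocorticoid response list 3 of 13 rose and 6 fell (median -0.84). The members that rose were Cdkn1c and the metallothionein genes Mt1 and Mt2A, whose proteins bind zinc and copper. Zbtb16, a zinc finger factor induced by the hormone, had 1.45 to 5.25 CPM (median 3.25) at day 3, against 11, 11.9, 18.6, 26.9 and 21.8 CPM in controls (-2.53 ± 0.50, adjusted p = 0.000688). It was also lower than at day 14 (-3.75 ± 0.51, adjusted p = 9.25e-05). Klf9 fell by 1.21 ± 0.25 and Nr3c1, the receptor itself, by 0.85 ± 0.14. Of 18 clock genes 6 fell and none rose (median -0.69; 2 rose under limma voom). Among those that fell were the repressors Nr1d1 (-1.80 ± 0.19) and Cry2 (-0.69 ± 0.12), and the labels do not state the hour of sampling. Mt2A had 53.8 to 148 CPM (median 111) at day 3, against 7.66, 15.8, 6.01, 11 and 4.47 CPM in controls (3.57 ± 0.58, adjusted p = 0.000126), where the lowest day 3 library was above the highest control. Mt1 had 31.6 to 71.8 CPM (median 51.3) at day 3, against 11, 30.4, 4.81, 3.76 and 4.34 CPM in controls (2.30 ± 0.58, adjusted p = 0.00405), or 3.62 without control bursae 1 and 2 and 3.17 without control bursa 2 alone.

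The promoters of both metallothionein genes are printed because these neighbouring genes rose together and are known for metal response elements, whose core reads TGCNCNC. The 250 bases before each RefSeq start (GRCr8) are given 5′ to 3′ on the gene's strand with the core on either strand in capitals, where matches may overlap one another. Mt1 is at chr19:10832976-10833225, minus strand, and Mt2A at chr19:10838709-10838958, minus strand.
Mt1: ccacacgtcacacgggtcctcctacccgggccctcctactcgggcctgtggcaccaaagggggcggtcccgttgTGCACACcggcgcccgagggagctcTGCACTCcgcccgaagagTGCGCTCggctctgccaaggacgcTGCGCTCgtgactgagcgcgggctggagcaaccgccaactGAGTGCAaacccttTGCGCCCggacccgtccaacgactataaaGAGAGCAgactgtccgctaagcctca
Mt2A: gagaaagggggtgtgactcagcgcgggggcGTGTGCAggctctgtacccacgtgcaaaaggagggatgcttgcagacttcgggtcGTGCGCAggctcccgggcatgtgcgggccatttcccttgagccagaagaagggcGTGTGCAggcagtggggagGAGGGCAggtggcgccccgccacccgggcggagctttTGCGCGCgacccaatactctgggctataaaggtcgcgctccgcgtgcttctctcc
Mt1 holds 7 matches and Mt2A 5. Of all 27457 promoters 43.9% hold 1 or more and 0.361% hold at least 5. That cut-off equals the Mt2A count, so both genes were bound to meet it. No metal was measured, and the matches say only that these letters are present.

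All 15 lipid droplet and lipolysis genes fell (median -1.69), and 19 of 22 lipid synthesis and uptake genes did (median -1.73). Plin4, a droplet coat protein, had 97.8 to 336 CPM (median 177) at day 3, against 1067, 1115, 1134, 584 and 600.0 CPM in controls (-2.21 ± 0.29, adjusted p = 2.13e-05). Aqp7, the channel that releases glycerol, had 24.6 to 73.5 CPM (median 37.7) at day 3, against 319, 276, 229, 187 and 206 CPM in controls (-2.51 ± 0.24, adjusted p = 1.06e-06). Nuclear respiratory chain genes fell in 24 of 25 cases (median -1.41). The last count rests on control bursae 1 and 2, the libraries with brown fat markers and a high mitochondrial share: without both, 0 fell and the median was 0.08. It was 4 without control bursa 1, 5 without control bursa 2 and 15 without day 3 bursa 6. Lipid synthesis genes that fell numbered 8 without control bursae 1 and 2 (median -0.65), whereas 10 of 15 lipid droplet genes still fell (median -1.14). Cox4i1, a subunit of cytochrome oxidase, shows the pattern, with 231, 382, 283, 234, 411 and 216 CPM at day 3, against 1414, 1255, 373, 300.1 and 340.1 CPM in controls, where the first 2 are the high ones.

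**Figure D5:**
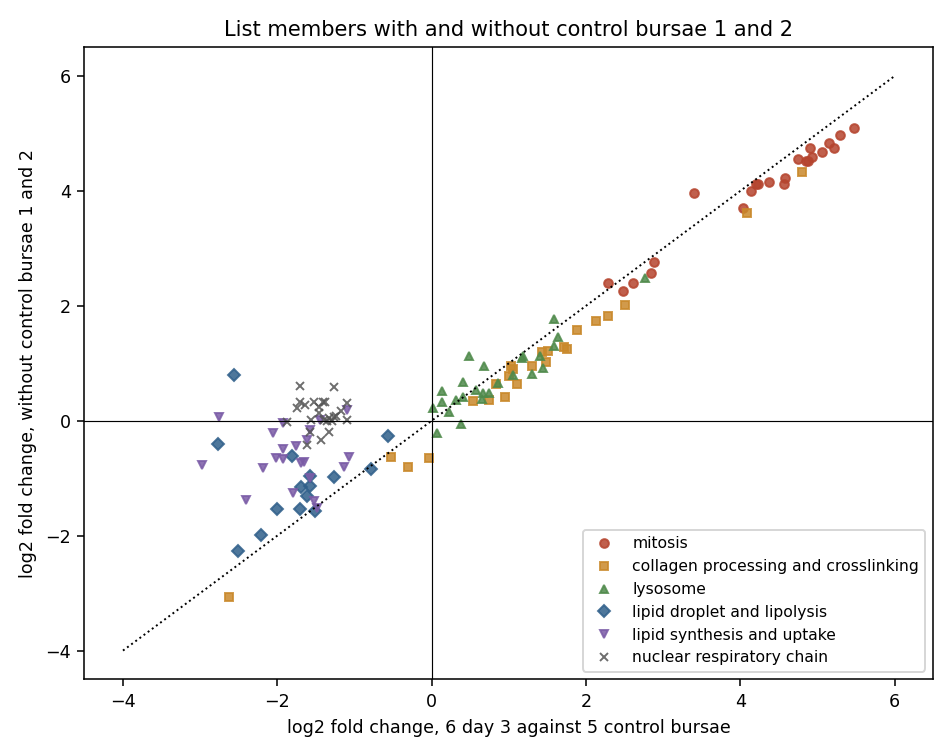
Log2 fold change of list members with all 5 control bursae (horizontal axis) and without control bursae 1 and 2 (vertical axis), 1 point per gene, with a dotted line where both are equal. Respiratory chain genes move to near 0 without the 2 libraries, and mitosis genes stay near the line.

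Among housekeeping pathways, 8 of 21 ribosome biogenesis genes rose and 1 fell (median 0.17), with Npm1, the nucleolar chaperone nucleophosmin, higher by 0.74 ± 0.08. Of 18 cholesterol synthesis genes 7 rose and 6 fell (median 0.01), while 10 were higher than at day 14 and none lower. Sqle, an early oxidation step of the pathway, had 11.2 to 24.5 CPM (median 14.4) at day 3, against 8.2, 7.39, 11.8, 6.43 and 6.38 CPM in controls (0.92 ± 0.19, adjusted p = 0.00115). Insig1, which holds the pathway back when sterols are plentiful, fell by 1.58 ± 0.16.

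Nerve sheath genes fell in 11 of 17 cases and rose in 2 (median -0.96), and 8 were lower than at day 14. S100b, a calcium binding protein of Schwann cells and fat cells, had 121 to 238 CPM (median 159) at day 3, against 503, 548, 1194, 886 and 909 CPM in controls (-2.27 ± 0.22, adjusted p = 1.09e-06). Sox10, the lineage factor, fell by 0.96 ± 0.18. Erbb3, the neuregulin receptor of the same lineage, rose by 1.77 ± 0.26. Artn, artemin, a growth factor for sensory axons, rose by 1.90 ± 0.36. Ntn1, the guidance cue netrin 1, had 2.91 to 7.14 CPM (median 4.78) at day 3, against 10.7, 7.3, 21.4, 29.3 and 27.9 CPM in controls (-2.05 ± 0.33, adjusted p = 0.000133).

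Endothelial and angiogenic genes passed at shares near those of all features, and smooth muscle genes mostly fell. Of 13 endothelial genes 2 rose and 4 fell (median 0.06), and 5 were higher than at day 14 with none lower. Kdr, the main receptor of vascular endothelial growth factor, had 80.4 to 161 CPM (median 123) at day 3, against 264, 272, 167, 154 and 179 CPM in controls (-0.79 ± 0.18, adjusted p = 0.00247). Tie1, an endothelial receptor, rose by 0.71 ± 0.15. Of 15 angiogenic ligand and tip cell genes 4 rose and 5 fell (median -0.02). Vegfd, a growth factor for lymph and blood vessels, had 25.1 to 54.2 CPM (median 38.7) at day 3, against 1.98, 1.8, 4.16, 8.01 and 7.83 CPM in controls (3.02 ± 0.36, adjusted p = 8.27e-06). Its change exceeded that of tendon by 1.99 ± 0.42 (adjusted p = 0.000499). The isoform gene Vegfb fell by 1.53 ± 0.19, and Aplnr, the apelin receptor, rose by 1.77 ± 0.26. Smooth muscle and pericyte genes fell in 10 of 18 cases and rose in 1 (median -0.58). Myh11, smooth muscle myosin, had 199 to 594 CPM (median 340.0) at day 3, against 662, 964, 838, 1645 and 1395 CPM in controls (-1.63 ± 0.31, adjusted p = 0.000534). Acta2, the actin shared with myofibroblasts, fell by 0.74 ± 0.22.

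Muscle genes differed widely among the day 3 libraries. Genes of regenerating muscle rose in 6 of 10 cases, and in 0 under limma voom and 3 with only these 11 libraries in the fit. Myh3, embryonic myosin, had 469, 0.314, 0.157, 11.6, 157 and 0 CPM in day 3 bursae 1 to 6, against 2.97, 0.284, 0.501, 0.708 and 1.06 CPM in controls (6.65 ± 1.85, adjusted p = 0.00805). The fold change was 4.99 without day 3 bursa 1, the highest library, and 7.28 without control bursa 1. The day 3 values of Myh3 thus lay both above and below the controls. Actc1, cardiac actin, which regenerating muscle also makes, was the highest of the genes ranked by fold change and had 547, 0.565, 1.1, 12.5, 194 and 0.519 CPM at day 3, against 0.36, 0.0948, 0.20, 0 and 0.128 CPM in controls (9.70 ± 2.15, adjusted p = 0.00172). The Actc1 value was 8.10 without day 3 bursa 1 and did not pass under limma voom (adjusted p = 0.419). Mymk, a protein of myoblast fusion, had 50.9, 0, 0, 0.405, 13.9 and 0.0649 CPM at day 3 and no count in any control, at least 349-fold higher against a floor of 3 counts over the control group, or 82.8-fold without day 3 bursa 1. Day 3 bursae 1 and 5 held most of the counts of all 3 genes. The 5 genes whose change exceeded that of tendon most were muscle genes too, among them Myh3 (difference 8.10 ± 1.53, adjusted p = 0.000127) and Actc1 (7.71 ± 1.92, adjusted p = 0.00274). The others were Myl4, an embryonic myosin light chain (6.59 ± 1.69, adjusted p = 0.00358), Itgb1bp2, a muscle integrin partner (5.80 ± 1.11, adjusted p = 0.000153), and Mymk, whose fitted value rests on controls without counts. Itgb1bp2 did not pass in the bursa itself (1.85 ± 1.05, adjusted p = 0.161). Its tendon means were 2.76 ± 2.29 CPM at day 3 and 42.8 ± 10.7 CPM in controls. Tendon means of Myh3 (66.9 and 187 CPM) and Myl4 (16.1 and 45.4 CPM) were also lower at day 3 than in controls. Those of Actc1 (12.0 and 3.05 CPM) and Mymk were higher. Without day 3 bursa 1 the differences were 6.44, 6.09, 4.83 and 4.22 for the 4 genes given with values. Without control bursa 1 that of Itgb1bp2 was 6.75 and that of Myh3 8.70. Without day 3 tendon 1 that of Actc1 was 8.34 and that of Myl4 7.46. Without control tendon 3 or 4 that of Myl4 was 5.95 or 5.97. Under limma voom Myh3, Actc1 and Myl4 did not pass (adjusted p = 0.397, 0.557 and 0.654).

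The remaining genes among the 15 highest and the 15 lowest fold changes whose groups did not overlap were taken by rank and not from a pathway. Of the highest, Cdca3 rose by 5.44 ± 0.39, Cenpf by 5.22 ± 0.46, Kif4a by 5.17 ± 0.36, Ccna2 by 5.15 ± 0.35, Top2a by 5.06 ± 0.38 and Bub1b by 4.91 ± 0.43, all genes of cell division. The locus LOC100359539, which has no role annotated in the files, rose by 5.30 ± 0.38. Cthrc1, a secreted protein of activated fibroblasts, rose by 5.55 ± 0.57, and Lrrc15, a membrane protein of the same cells, by 6.52 ± 0.98 (8.70 without control bursa 4). Among the lowest, Oxtr, the oxytocin receptor, had 0.113 to 2.46 CPM (median 0.571) at day 3, against 4.15, 9.19, 24.8, 13.1 and 14.6 CPM in controls (-4.07 ± 0.69, adjusted p = 0.000195), and -4.90 without day 3 bursa 3. Lamb3, a chain of epithelial laminin, had 0.904 to 2.48 CPM (median 1.43) at day 3, against 8.02, 3.98, 20.7, 18.8 and 15.9 CPM in controls (-3.13 ± 0.39, adjusted p = 1.05e-05). Its change was lower than that of tendon (difference -3.54 ± 0.47, adjusted p = 4.29e-07). Arc, an immediate early gene best known from neurons, had 0.89 to 2.71 CPM (median 1.41) at day 3, against 8.29, 12.5, 8.96, 15.6 and 14.7 CPM in controls (-2.99 ± 0.38, adjusted p = 1.53e-05). For these 3 genes, as for all genes ranked against controls, the absence of overlap was a condition of the ranking. Angptl8, a lipase regulator of fat and liver, fell (-2.13 ± 0.33), and with Alas2 (-4.93 ± 0.60, adjusted p = 1.03e-07) it was among the 5 genes lowest in the bursa relative to tendon (-4.76 ± 0.81, adjusted p = 2.86e-05; -7.75 without control tendon 3). Tendon means of Alas2 were 0.965 ± 0.34 CPM at day 3 and 0.118 ± 0.0838 CPM in controls. Those of Angptl8 were 1.29 ± 0.896 CPM at day 3 and 0.196 ± 0.397 CPM in controls. The control tendon levels of both genes thus rest on few counts. The other genes of those 5 rested on few libraries. Acan, the proteoglycan aggrecan, differed by -5.03 ± 1.62 (adjusted p = 0.0198), and by 3.30 (adjusted p = 0.197) without control bursa 4. Hapln4, a link protein of such proteoglycans, differed by -7.07 ± 1.67 (adjusted p = 0.00159), by -4.10 without control bursae 1 and 2 and by -8.85 without control tendon 1. The locus LOC108348074, which has no role annotated in the files, differed by -11.31 ± 3.72 (adjusted p = 0.0236), and by -7.86 (adjusted p = 0.207) without day 3 tendon 5. Under limma voom none of these 3 passed. Nnat, neuronatin, which is imprinted and expressed in brain and fat, fell (-4.58 ± 0.66; -5.19 without control bursae 1 and 2). Cytl1, a secreted cytokine-like protein, fell too (-4.19 ± 0.52; -3.25 without control bursa 4). So did Grifin, a galectin of the eye lens (-3.17 ± 0.31), Akr1c19, an aldo-keto reductase (-2.79 ± 0.42), Pkhd1l1 (-2.67 ± 0.29) and the locus LOC103690116 (-2.79 ± 0.35).

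Some genes of interest were not matched to transcripts, and for these the authors' deposited table of the same groups gives values, with the sign turned to day 3 over control. In the authors' deposited table Cdk1, the kinase of mitosis, had a log2 fold change of 4.88 (adjusted p = 7.29e-41). Ect2, which starts cytokinesis, had 4.99 (adjusted p = 3.88e-48) in the authors' deposited table. The authors' deposited table gives Il1rl1, the interleukin 33 receptor, 2.58 (adjusted p = 3.05e-08), and Csf1r, the receptor for macrophage colony stimulating factor, 1.35 (adjusted p = 0.000863). Vcan, the proteoglycan versican, was higher at day 3 in the authors' deposited table (2.12, adjusted p = 0.00317). Lower there were Vegfa, the main vascular growth factor (-1.44, adjusted p = 5.45e-13), and Nr4a1, an immediate early nuclear receptor (-2.22, adjusted p = 1.67e-11), in the authors' deposited table.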

How the data were processed

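Poly-A selected RNA of 46 rat libraries in 8 groups was sequenced per the labels' protocols, and 11 of them are the bursae compared here. Per the submitters' processing notes the tools were bcl2fastq 2.19, kallisto 0.44.0 and DESeq2. For genome build, annotation and the DESeq2 version, details were not given in the sources used here. Estimated counts per transcript, already in whole numbers, were deposited as 1 table, with 13364383 to 19506019 counts per day 3 bursa and 15539441 to 20394839 per control bursa. The authors also deposited 11 tables of their own comparisons per gene symbol. In those deposited tables the mean signal is a count divided by size factors, the fold change and its error are on the log2 scale, and p-values are given raw and adjusted, per the file headers. Their Wald statistic was not used.

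The deposited count table names transcripts and the comparison tables name genes, so symbols were matched to transcripts, or to sums of transcripts, by the mean value over each table's libraries. This matched 14398 of 23747 symbols, and 93.9% of the 12853 symbols with a mean of at least 50. The 17529 matched transcripts (of 31715) carry 93.4% of the counts, with a range over libraries of 91.7 to 97.3%. Decoy values gave 7 matches, 0.0486% as many. Transcripts without a symbol stayed in the fits as features of their own. RefSeq promoters (GRCr8) were joined by symbol.

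Counts were summed to symbols and low features removed by filterByExpr. Libraries were scaled by TMM, and the quasi-likelihood test of edgeR 4.0.16 (R 4.3.3, robust) was used, with Benjamini-Hochberg adjustment over all features and a threshold of 0.05. The comparisons with controls and with day 14 used all 17 bursa libraries, and the comparison with tendon all 46. CPM divides counts by the TMM library size, so a level is a share of the library and is not corrected for length. Genes were named by rank (15 at each end of day 3 against control, with at least 10 CPM and no overlap, and 5 at each end of the other comparisons) or as members of gene lists. The members and lists were chosen with earlier results of these data known. No 2 libraries of these groups agreed within sampling noise. Alternatives were DESeq2 1.42.0, limma 3.58.1 voom with quality weights, RLE scaling, no filter, no mitochondrial transcripts, single transcripts, a replicate block, only the groups compared, and fits without libraries. Intervals and floors cover counting error only (95%, exact).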

Additional observations from a re-analysis of the deposited data

Results flagged for a closer look

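For 34 of the 366 groups of bursa libraries behind the genes named (184 genes, with day 3 and control bursae taken apart), 1 library lay far from the others, its gap to the nearest being a large part of the group's whole range. The cut-off flags about 1 in 20 groups when values are independent and normally spread. The genes here share libraries and the spread of CPM was not tested, so 34 of 366 cannot be set against that rate. Control bursa 4 was the high library for 9 genes: Bmp6 at 19.8 CPM, Cemip at 16.8, Cytl1 at 691, Fbn2 at 3.76, Lrrc15 at 2.51, Ltbp2 at 39.8, Pla2g5 at 16.7, Prg4 at 683 and Wif1 at 216 CPM. The same library had the highest tendon markers of the controls, and their part in these values was not tested. Day 3 bursa 5 was the low library for 6 genes, with C5ar1 at 52.6 CPM, Ccna2 at 11.1, Kif2c at 4.24, Mmp19 at 83.0, Timp1 at 115 and Top2a at 38.1 CPM, and the high one for Klf9 (95.3 CPM) and Trib3 (9.71 CPM).

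Day 3 bursa 1 stood above the other day 3 bursae in the muscle genes Actc1 (547 CPM), Myh3 (469 CPM) and Mymk (50.9 CPM). Day 3 bursa 6 was the high library for Cd8a (12.7 CPM), Col18a1 (868 CPM), Nnat (75.3 CPM) and Sfrp1 (231 CPM), day 3 bursa 4 for Ftl1 (1700.2 CPM) and Ptgs2 (18.3 CPM), and day 3 bursa 3 for Oxtr (2.46 CPM) and Sqle (24.5 CPM). Among controls, bursa 2 was high for Mt1 (30.4 CPM), Osm (0.758 CPM) and Timp4 (121 CPM) and low for Cd55 (10.5 CPM). Control bursa 1 was high for Myh3 (2.97 CPM) and control bursa 5 for Vsig4 (0.0425 CPM, a single count).

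For 19 genes the report gives a difference between the day 3 change of the bursa and that of the tendon, each past an interaction test over all 46 libraries (edgeR, adjusted p under 0.05), and others named for other comparisons, such as Nnat and Scd, also passed it. It was higher in the bursa for Myh3 (log2 difference 8.10), Actc1 (7.71), Myl4 (6.59), Itgb1bp2 (5.80), Cfi (4.70), Il33 (2.22), Vegfd (1.99) and Lifr (1.35). It was lower in the bursa for LOC108348074 (-11.31), Hapln4 (-7.07), Acan (-5.03), Alas2 (-4.93), Angptl8 (-4.76), Ptgs2 (-4.54), Hbb (-4.10), Lamb3 (-3.54), Bmp7 (-2.66), Wnt5a (-2.51) and Hmox1 (-1.74). The value of LOC108348074 rests on control tendons without counts, and that of Hapln4 on control tendons with few.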

How the results depend on the processing

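The count of genes called between day 3 and control bursae stayed within 1.5 times its value of 7460 in every alternative, from 6166 with only these 11 libraries in the fit to 7999 in DESeq2. Leaving out 1 library gave 6591 to 7642 (3240 to 3700 higher, 3327 to 3942 lower). Against day 14, the 3535 genes called became 6236 under limma voom (3339 higher, 2897 lower) and 5426 without control bursae 1 and 2 (3072 higher, 2354 lower), and 2649 to 3666 without 1 library (1557 to 2076 higher, 1081 to 1590 lower). Against the tendon response, the 4118 genes called became 2742 with only the 4 groups in the fit, where 1150 were lower; without control bursae 1 and 2, 3013 were higher, against 1694 with them. Leaving out 1 library there gave 3555 to 4766 (1429 to 2063 higher, 2104 to 2703 lower). The causes of these shifts were not tested. The median of all features against controls lay between -0.08 and 0.01 over the alternatives, and that against the tendon response between -0.09 and 0.04, with -0.08 in the fit reported. Of 182 genes called between day 3 and control and named in the text, 174 kept their call in every alternative and 182 in DESeq2. Of 12 named against day 14, 9 kept theirs throughout, and of 19 named against tendon 12 did. Prg4, which did not pass, changed sign without control bursae 1 and 2 (-0.51) and without control bursa 1 (-0.11), 2 (-0.16) or 3 (-0.03). The tendon difference of Acan turned positive under limma voom (0.34) and without control bursa 4 (3.30), in a range of -6.39 to 3.30 without 1 library. Among gene lists, nuclear respiratory chain genes that fell numbered 24, against 0 under limma voom and 9 with only these 11 libraries. Lipid synthesis genes that fell numbered 9 under limma voom, against 19, and network collagens 8, against 5. Prostaglandin genes that fell numbered 7 under limma voom, against 4. DNA replication genes that rose less than in tendon numbered 4 with only the 4 groups in the fit, against 7. The labels do not say that a replicate number marks a shared rat or batch. Deviations of day 3 and control bursae with the same number correlated at 0.203, 0.203, -0.0139, 0.106 and -0.306. For other numbers the range was -0.551 to 0.484. This check cannot show whether bursa and tendon libraries of the same number share a rat, which was not examined. With a replicate block 6792 genes were called against controls, 3319 against day 14 and 4400 against the tendon response, and 4 nuclear respiratory chain genes fell. With the block Wif1 had an adjusted p of 0.0656 and Cd9 of 0.122, and Mx1, Irf7 and Cilp2 against day 14 had 0.629, 0.112 and 0.0998. Estimated counts split reads between similar transcripts, so genes with near-identical copies are less certain. Levels under about 1 CPM rest on few counts, at 13364383 to 20394839 counts per library.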
